A study of Mus musculus with 13 samples.

Results

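Cytochrome c oxidase is complex IV of the mitochondrial respiratory chain, which passes electrons from cytochrome c to oxygen. Its catalytic core is encoded in mitochondrial DNA, and the smaller subunits around the core are encoded in the nucleus. Some of these smaller subunits have a muscle isoform, found mainly in heart and skeletal muscle, and a ubiquitous isoform made in most tissues, so that the mixture of isoforms differs between tissues. The genes described here are the 9 that encode such isoforms and their close relatives, chosen by name from the 21868 genes of the data. The muscle isoforms are Cox7a1, Cox6a2 and Cox8b. The ubiquitous isoforms are Cox7a2, Cox6a1 and Cox8a, set beside Cox7a2l, whose product is a relative of subunit 7A known for joining complexes III and IV into supercomplexes. Subunit 4 is encoded by Cox4i1, the isoform of most tissues, and Cox4i2, the isoform known from lung and from cells short of oxygen. All 9 genes reached a mean of 10 normalized counts over all mice and were tested with the 12303 genes that did.

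RNA came from the gastrocnemius, a calf muscle made up mostly of fast fibres, of 13 male C57BL/6N mice that arrived at 7 weeks of age. After 1 week of acclimatization all mice ate a diet with 60% of its energy as fat for 15 to 17 weeks, which made them obese, and were then returned to chow. For the last 3 weeks 5 mice (1 to 5) received vehicle, which was phosphate-buffered saline, 5 mice (13 to 17) received semaglutide, a GLP-1 receptor agonist, at 30 nM/kg per day by intraperitoneal injection, and 3 mice (19, 21 and 22) received the same semaglutide with a ketone ester, which they drank in their water at 0.114 g/mL. The labels pair vehicle and semaglutide alone with a placebo for the ketone ester. No mouse received the ketone ester alone.

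Between 15319471 and 23498162 reads were counted on genes per mouse. All libraries carried 1 batch label. The muscle genes Acta1 (skeletal alpha-actin) and Ckm (muscle creatine kinase) reached at least 315116 and 258639 normalized counts in every mouse, and the cardiac troponin gene Tnni3 did not exceed 4.82. On the first principal component of all tested genes semaglutide mouse 13 had a score of -9.12, against 31.8 to 52.5 in the other semaglutide-treated mice, and semaglutide mouse 16 held the most adipocyte transcripts, with 1452 normalized counts of Adipoq (adiponectin) against at most 595 in the other 12 mice. For the 9 genes and their ratios, the value without either mouse is given where leaving it out ended a call. Some uncalled values that moved are given too.

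Among the 9 genes, 4 were lower under semaglutide than under vehicle, namely Cox7a1, Cox8b, Cox7a2 and Cox4i1, where 13.9% of all genes tested were lower and 26.5% were called in either direction. These 4 genes were also higher in semaglutide + ketone ester-treated than in semaglutide-treated mice, where 10.0% of all genes were higher and 20.7% were called. Cox7a1 changed the most of the 9, with a 3.11-fold decrease under semaglutide, whereas the other 3 fell by 21.9% to 30.6%. Cox6a2, the most abundant of the 9 per unit of length, overlapped between all 3 groups, and Cox7a2l, Cox6a1, Cox8a and Cox4i2 did not pass the test in any comparison. Of the genes called lower, Cox7a1 and Cox8b are muscle isoforms, Cox7a2 is a ubiquitous isoform and Cox4i1 encodes subunit 4. The call of Cox7a2 was the least stable of these, as it was lost in 8 of 13 fits that left out 1 mouse and when columns were rescaled to equal totals. The plot of normalized counts by mouse shows all 9 genes.

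**Figure D1:**
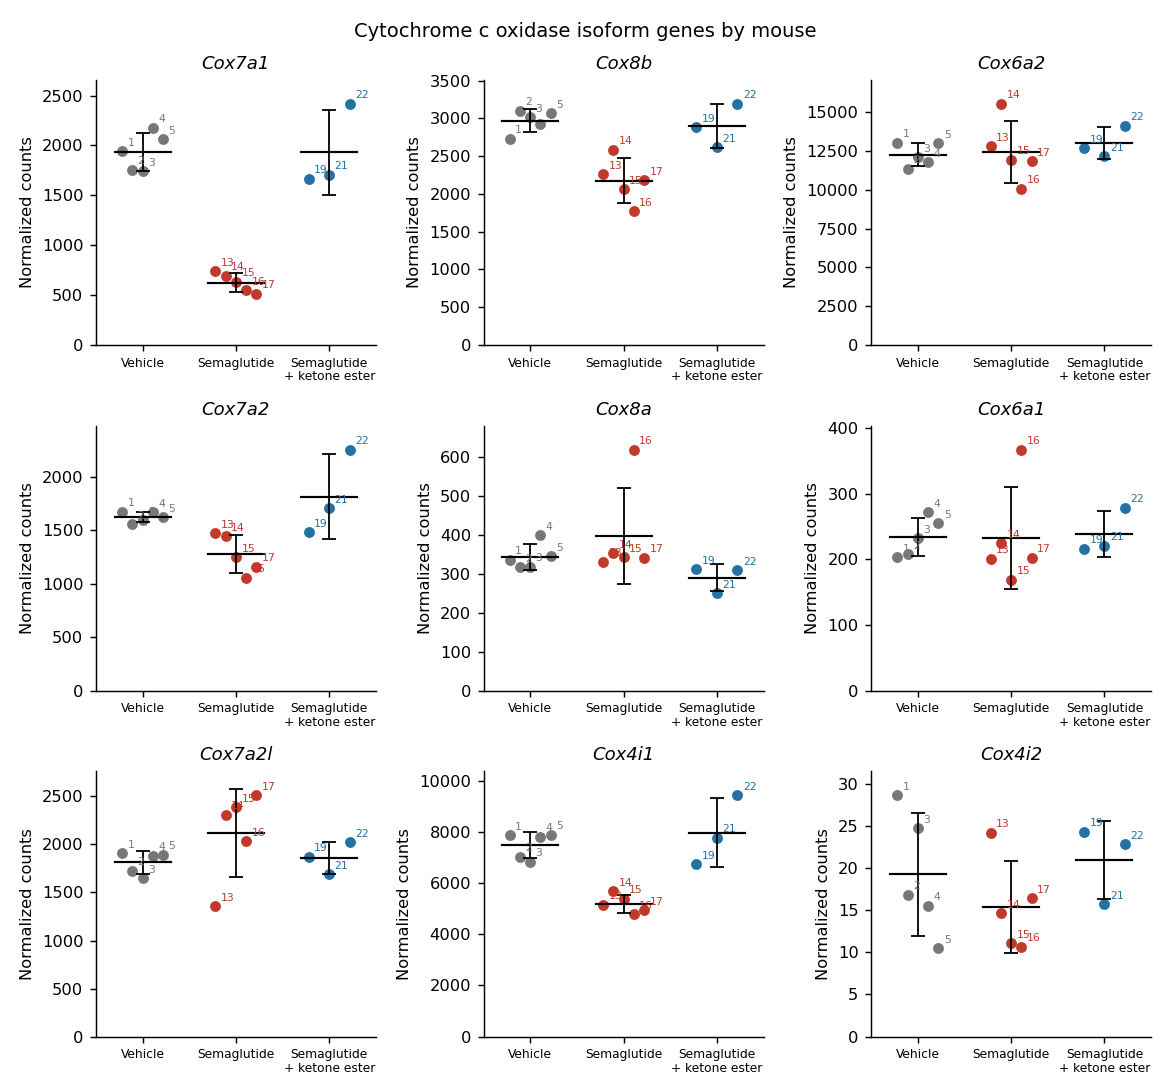
Normalized counts (vertical axis, linear and starting at 0, with its own range for each gene) of the 9 genes in each of 13 mice, numbered as in the labels and grouped by treatment, with lines for the mean and bars for the SD of each group (n = 5, 5 and 3). For Cox7a1 the 5 semaglutide-treated mice lie between 513 and 738, below all other mice, whereas for Cox6a2 the groups overlap, and for Cox6a1 and Cox8a semaglutide mouse 16 stands above all other mice.

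Cox7a1, the muscle isoform of subunit 7A, stabilizes dimers of complex IV. Its gene lies on chromosome 7 (positions 30184144 to 30186078, plus strand, GRCm38, GENCODE ENSMUSG00000074218.3) and its main transcript has 4 exons. Vehicle mice 1 to 5 had 1942, 1755, 1739.7, 2177 and 2062 normalized counts. Semaglutide mice 13 to 17 had 738, 693, 635, 548 and 513, and semaglutide + ketone ester mice 19, 21 and 22 had 1665, 1707 and 2417. The highest semaglutide-treated mouse was below the lowest mouse of either other group, and the vehicle and semaglutide + ketone ester groups overlapped. The semaglutide group was 3.11-fold below the vehicle group (log2 difference -1.64, 95% confidence interval -1.90 to -1.37, limma adjusted p = 6.26e-06). By its p it ranked 3 among the 12303 genes tested in this comparison, and by the size of the decrease it ranked 130. The semaglutide + ketone ester group was 3.06-fold above the semaglutide group (log2 difference 1.62, interval 1.31 to 1.92, adjusted p = 1.08e-04), and its difference from vehicle was -0.02 with an interval of -0.33 to 0.29 (adjusted p = 0.984). A remaining difference from vehicle of a size within that interval was not detectable with 3 and 5 mice.

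Cox7a2, the ubiquitous isoform of subunit 7A, is the closest partner of Cox7a1. It lies on chromosome 9 (79755361 to 79759878, minus strand, ENSMUSG00000032330.7). The coding sequences of both genes, taken from the GENCODE M21 transcripts on GRCm38, are shown because the comparison between them rests on reads that tell them apart. Capitals mark bases that differ from the aligned base of the other gene or that have no partner there.
Cox7a1: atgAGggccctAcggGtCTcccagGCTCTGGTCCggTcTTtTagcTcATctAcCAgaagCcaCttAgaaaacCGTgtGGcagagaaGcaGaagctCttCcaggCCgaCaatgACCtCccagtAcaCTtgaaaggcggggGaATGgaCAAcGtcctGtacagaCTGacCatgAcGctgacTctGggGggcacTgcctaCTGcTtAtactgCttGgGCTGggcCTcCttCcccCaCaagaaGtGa
Cox7a2: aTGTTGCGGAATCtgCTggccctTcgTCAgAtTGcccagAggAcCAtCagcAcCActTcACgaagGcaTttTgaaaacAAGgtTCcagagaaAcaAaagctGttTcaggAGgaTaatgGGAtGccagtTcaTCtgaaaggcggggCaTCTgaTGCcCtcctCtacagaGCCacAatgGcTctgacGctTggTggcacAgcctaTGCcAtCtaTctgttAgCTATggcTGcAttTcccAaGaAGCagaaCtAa
Over 233 aligned bases the coding sequences were identical at 157 (67.4%), and the longest run of bases that the main transcripts shared was 12, against a read length of 59. Between the members of the other pairs, Cox6a2 with Cox6a1, Cox8b with Cox8a and Cox4i2 with Cox4i1, the longest shared run was 10 to 14 bases. A read that lies wholly in the main transcript of 1 member could therefore not match the other without mismatches.

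Normalized counts of Cox7a2 were 1672, 1558, 1596, 1669 and 1619.6 in vehicle mice 1 to 5. Under semaglutide mice 13 to 17 had 1475, 1443, 1249, 1058 and 1159.9, and semaglutide + ketone ester mice 19, 21 and 22 had 1483, 1704 and 2253. Every semaglutide-treated mouse lay below every mouse of the other groups, but mice 13 and 19 were close to each other. Semaglutide lowered Cox7a2 by 21.9% (log2 difference -0.36, interval -0.60 to -0.11, adjusted p = 0.0323), and the semaglutide + ketone ester group was 1.41-fold above semaglutide (log2 difference 0.50, interval 0.21 to 0.78, adjusted p = 0.0174). The first of these calls was lost in 8 of the 13 fits that left out 1 mouse, namely any vehicle-treated mouse or semaglutide mouse 15, 16 or 17, with adjusted p of up to 0.0807. Without mouse 16 its log2 difference was -0.29 (adjusted p = 0.0714). The second call was lost without semaglutide + ketone ester mouse 22, where the log2 difference was 0.33 (adjusted p = 0.111).

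The ratio of Cox7a1 to Cox7a2 shows how far the muscle isoform changed against its partner within the same mouse, and does not depend on how libraries are scaled. In vehicle mice 1 to 5 the ratio of normalized counts was 1.16, 1.13, 1.09, 1.30 and 1.27. In semaglutide mice 13 to 17 it was 0.50, 0.480, 0.509, 0.517 and 0.442, and in semaglutide + ketone ester mice 19, 21 and 22 it was 1.12, 1.00 and 1.07. The semaglutide-treated mice, mice 13 and 16 included, formed a narrow band below all others. The log2 ratio was 1.28 lower under semaglutide than under vehicle, a 2.43-fold change (two-sided exact permutation test, p = 0.00794, and 0.0476 when adjusted over the 12 tests of 4 ratios), which is the smallest p that 5 mice against 5 can give. Without mouse 16 it was 1.30 lower, with the same exact p of 0.00794 in the permutation test (adjusted p = 0.0857). Adding the ketone ester raised the mean log2 ratio by 1.12 (exact p = 0.0179, adjusted p = 0.0714, the smallest p that 3 against 5 allows), which did not pass the threshold after adjustment. Semaglutide + ketone ester and vehicle overlapped, with a log2 difference of -0.16 (exact p = 0.0893, adjusted p = 0.214).

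Counts grow with transcript length, so levels of different genes were compared per kilobase of the main transcript. On this scale Cox7a1 was the most abundant of the 3 subunit 7A genes in vehicle-treated mice, with 4924 ± 484 normalized counts per kb (SD, n = 5) against 2463 ± 73.8 for Cox7a2 and 1684 ± 108 for Cox7a2l, and the ranges of the 3 genes did not overlap. Under semaglutide the means were 1591 ± 241 for Cox7a1, 1938 ± 272 for Cox7a2 and 1969 ± 429 for Cox7a2l (SD, n = 5), with overlapping ranges. As a share of Cox7a1 and Cox7a2 together, Cox7a1 made up 66.6% ± 1.73 of transcripts per kb in vehicle-treated mice (SD, n = 5), 45.1% ± 1.54 under semaglutide (SD, n = 5) and 64.1% ± 1.33 with the ketone ester added (SD, n = 3). On this scale Cox7a1 held the smaller share of the pair in every semaglutide-treated mouse, with a highest share of 46.5%, and the larger share in every other mouse. Whole transcript lengths were used, without a correction for the size of the sequenced fragments. Which gene held the larger share under semaglutide may depend on this choice. With the union of all annotated exons as the length, the mean shares were 67.7%, 46.3% and 65.2%. The plot of isoform shares sets this pair beside the other 2.

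**Figure D2:**
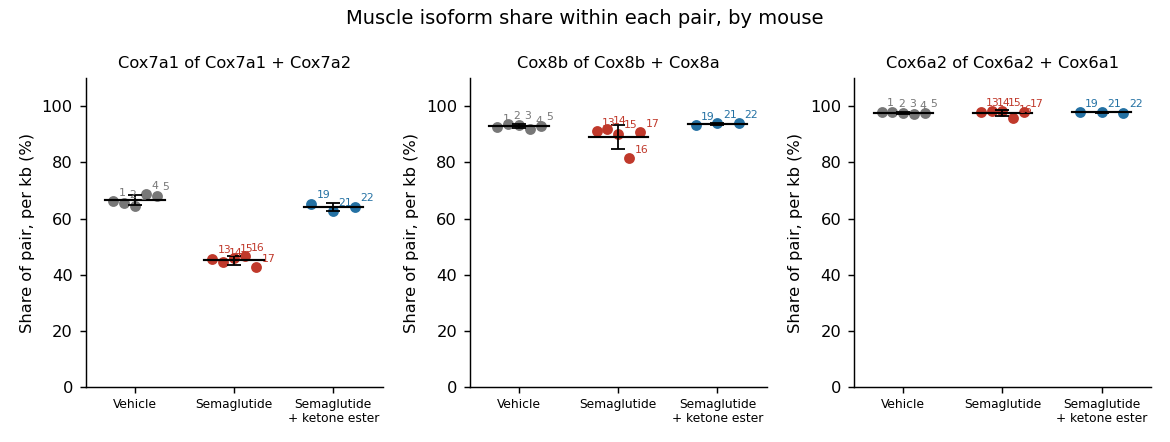
Share of the muscle isoform in each isoform pair, as a percent of the normalized counts per kilobase of both genes (vertical axis, starting at 0), in each of 13 mice, with lines for the mean and bars for the SD of each group (n = 5, 5 and 3). The share of Cox7a1 is 42.6% to 46.5% in semaglutide-treated mice and 62.7% to 68.6% in the others, that of Cox6a2 is at least 95.8% in every mouse, and that of Cox8b is lowest, at 81.4%, in semaglutide mouse 16.

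Cox8b, the muscle isoform of subunit 8 in mice, lies on chromosome 7 (140898945 to 140900446, minus strand, ENSMUSG00000025488.9). It had 2728, 3101, 3015, 2922 and 3069 normalized counts in vehicle mice 1 to 5. Semaglutide mice 13 to 17 had 2259, 2587, 2061, 1772 and 2179.6, and semaglutide + ketone ester mice 19, 21 and 22 had 2879.7, 2616 and 3192. All semaglutide-treated mice lay below all others, but the margin between mouse 14 and mouse 21 was small, and the decrease was much smaller than that of Cox7a1. Cox8b fell by 27.3% under semaglutide (log2 difference -0.46, interval -0.66 to -0.26, adjusted p = 0.00347). It was 1.34-fold higher with the ketone ester than with semaglutide alone (log2 difference 0.42, interval 0.19 to 0.66, adjusted p = 0.0159), a call that was lost without semaglutide + ketone ester mouse 22 (log2 difference 0.35, adjusted p = 0.0918).

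Cox8a, the ubiquitous isoform of subunit 8, lies on chromosome 19 (7215153 to 7217616, minus strand, ENSMUSG00000035885.5). Vehicle mice 1 to 5 had 335, 317, 318, 398 and 345 normalized counts. Semaglutide mice 13 to 17 had 331, 353, 342, 618 and 341, and semaglutide + ketone ester mice 19, 21 and 22 had 311, 250.04 and 309. Mouse 16 stood well above the rest of its group, whose other 4 mice lay within the vehicle range, and the 3 semaglutide + ketone ester-treated mice were the lowest of all 13. The log2 difference of semaglutide + ketone ester from semaglutide was -0.41 (interval -0.80 to -0.03, adjusted p = 0.114), and that from vehicle was -0.24 (interval -0.62 to 0.14, adjusted p = 0.735), neither of which passed the test. Without mouse 16 the first of these was -0.24 (adjusted p = 0.126), and without mouse 21 they were -0.31 and -0.14. Semaglutide against vehicle gave 0.17 (interval -0.16 to 0.50, adjusted p = 0.444), and without mouse 16 the value was close to 0, at 0.00099.

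In mouse 16 the 7 adipocyte marker genes summed to 19743 normalized counts, against 1772 to 3815 in the other 4 semaglutide-treated mice, 3380.5 to 7084 in vehicle-treated mice and 3772 to 4643 with the ketone ester. Cox8a and Cox6a1 were both highest in this mouse, and the part of adipocyte RNA in their values was not tested. Of the 7 adipocyte genes 0 were called by limma in any comparison between groups, while 1 had an unadjusted p under 0.05 and 1 was called by DESeq2 in semaglutide against vehicle. The gene called by DESeq2 was Cfd, which was higher under semaglutide (log2 difference 2.36, adjusted p = 0.0306). DESeq2 gave no adjusted p for Adipoq, Plin1 and Cidec. Without mice 13 and 16, limma called 3 of the 7 genes lower under semaglutide than under vehicle and 3 higher with the ketone ester than with semaglutide. In that fit 2283 of all 12303 genes tested were lower under semaglutide and 1951 were higher with the ketone ester. In such bulk tissue, fewer cells of a type and less RNA per cell cannot be told apart.

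The ratio of Cox8b to Cox8a was 7.34 to 9.79 in vehicle-treated mice. In semaglutide mice 13 to 17 it was 6.83, 7.34, 6.02, 2.87 and 6.39, and in semaglutide + ketone ester mice 19, 21 and 22 it was 9.26, 10.5 and 10.3. The highest semaglutide-treated mouse, mouse 14, lay just under the lowest vehicle-treated mouse, mouse 4, with both near 7.34. The log2 ratio was 0.63 lower under semaglutide than under vehicle (exact permutation test, p = 0.00794, adjusted p = 0.0476), and 0.39 lower when mouse 16 was left out (adjusted p = 0.0857). With the ketone ester it was 0.83 higher than with semaglutide alone (exact p = 0.0357, adjusted p = 0.107), and 0.59 higher without mouse 16 (exact p = 0.0286, adjusted p = 0.0857). Because Cox8b is much the more abundant of the 2 genes per kb, its share of the pair was 93.0% ± 0.784 in vehicle-treated mice (SD, n = 5), 89.1% ± 4.32 with semaglutide alone (SD, n = 5) and 93.9% ± 0.394 with the ketone ester added (SD, n = 3). Without mouse 16 the share with semaglutide alone was 91.0% ± 0.694 (SD, n = 4).

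Cox6a2, the muscle isoform of subunit 6A, lies on chromosome 7 (128205435 to 128206387, minus strand, ENSMUSG00000030785.8). Vehicle mice 1 to 5 had 13037, 11351, 12084, 11784 and 13012 normalized counts. The semaglutide mice 13 to 17 had 12819, 15535, 11936, 10077 and 11844, and semaglutide + ketone ester mice 19, 21 and 22 had 12662, 12153 and 14137. Semaglutide-treated mice spanned both the lowest and the highest value of all 13 mice. The log2 difference of semaglutide from vehicle was 0.01 (interval -0.22 to 0.24, adjusted p = 0.957), and that of semaglutide + ketone ester from semaglutide was 0.07 (interval -0.19 to 0.33, adjusted p = 0.715). A decrease of the size of that of Cox8b, Cox4i1 or Cox7a2 lay outside the first of these intervals. Without mouse 16 the 2 log2 differences were 0.08 and 0.00045 (limma adjusted p = 0.555 and 0.998). Cox6a2 shares 70 of its 680 exonic bases with Itgad on the opposite strand, and Itgad had at most 32.0 normalized counts in any mouse.

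Cox6a1, the ubiquitous isoform of subunit 6A, lies on chromosome 5 (115345642 to 115348981, minus strand, ENSMUSG00000041697.8) and was expressed at a low level. Its normalized counts were 204 to 272 in vehicle-treated mice, 169 to 367 in semaglutide-treated mice and 216 to 279 with the ketone ester, with the highest value again in mouse 16. Its log2 differences were -0.05 for semaglutide against vehicle (interval -0.43 to 0.32), 0.08 for the ketone ester group against semaglutide (interval -0.35 to 0.51) and 0.03 for semaglutide + ketone ester against vehicle, with adjusted p between 0.816 and 0.985. Without mouse 16 the first and second were -0.23 (adjusted p = 0.186) and 0.26 (adjusted p = 0.211). The ratio of Cox6a2 to Cox6a1 was 53.0 ± 7.43 in vehicle-treated mice (SD, n = 5), 57.9 ± 17.7 with semaglutide alone (SD, n = 5) and 54.8 ± 3.94 with the ketone ester added (SD, n = 3). No comparison of this ratio passed the test (exact permutation test, p = 0.881, 1 and 0.661). Without mouse 16 its log2 difference between semaglutide and vehicle went from 0.06 to 0.31 (adjusted p = 0.0952), and that with the ketone ester against semaglutide from -0.0067 to -0.26 (adjusted p = 0.153). The muscle isoform made up 97.8%, 97.7% and 97.9% of the pair per kb in the 3 groups.

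Cox7a2l lies on chromosome 17 (83501918 to 83517330, minus strand, ENSMUSG00000024248.14). It had 1909.8, 1729, 1649, 1882 and 1892 normalized counts in vehicle mice 1 to 5. Semaglutide mice 13 to 17 had 1355, 2308, 2387, 2035 and 2510.0, and semaglutide + ketone ester mice 19, 21 and 22 had 1873, 1689 and 2024. Mouse 13 was the lowest of all 13 mice, whereas the other 4 semaglutide-treated mice were above every vehicle-treated and every semaglutide + ketone ester-treated mouse. With all mice the log2 differences were 0.20 for semaglutide against vehicle (interval -0.10 to 0.49, adjusted p = 0.323) and -0.16 for the addition of the ketone ester (interval -0.50 to 0.18, adjusted p = 0.521). Without mouse 13 they were 0.35 and -0.31 and passed the test (limma adjusted p = 0.00378 and 0.0181), so that the call for this gene was set by 1 mouse.

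Cox4i1, the common isoform of subunit 4, lies on chromosome 8 (120668222 to 120674207, plus strand, ENSMUSG00000031818.12). Vehicle mice 1 to 5 had 7868, 7027, 6833, 7817 and 7881 normalized counts. In the semaglutide group, mice 13 to 17 had 5157, 5682, 5391, 4787 and 4938, and semaglutide + ketone ester mice 19, 21 and 22 had 6735, 7763 and 9423. The semaglutide-treated mice lay together below all others, and the remaining groups overlapped. Cox4i1 fell by 30.6% under semaglutide (log2 difference -0.53, interval -0.73 to -0.33, adjusted p = 0.00135) and was 1.52-fold higher with the ketone ester than with semaglutide alone (log2 difference 0.61, interval 0.38 to 0.84, adjusted p = 0.00209). It shares 154 of its 1550 exonic bases with Emc8 on the opposite strand, which had 200.4 to 319 normalized counts. The libraries were stranded, but whether strand was used in counting is not given in the sources used here.

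Cox4i2 lies on chromosome 2 (152754173 to 152765037, plus strand, ENSMUSG00000009876.13). It was near the limit of detection, with 9 to 25 reads per mouse. Its normalized counts were 10.5 to 28.6 under vehicle, 10.7 to 24.2 under semaglutide and 15.7 to 24.3 under semaglutide + ketone ester, and all groups overlapped. The intervals of its log2 differences were wide, from -0.95 to 0.38 for semaglutide against vehicle and from -0.31 to 1.22 for semaglutide + ketone ester against semaglutide, so that changes as large as those of Cox4i1 were not detectable at this depth. The first difference, -0.28 with all mice, was -0.45 without mouse 13 and -0.17 without mouse 16, and it passed the test in none of these fits. Per kb, Cox4i1 made up at least 99.5% of both subunit 4 isoforms in every mouse.

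In vehicle-treated mice the order of the 9 genes per kilobase, from the highest mean, was Cox6a2, Cox4i1, Cox8b, Cox7a1, Cox7a2, Cox7a2l, Cox8a, Cox6a1 and Cox4i2. The ranges over the 5 mice of neighbouring genes in this order did not overlap. Means ran from 18020.3 ± 1104 for Cox6a2 over 10047 ± 687 for Cox4i1 and 8242 ± 417 for Cox8b to 26.5 ± 10.1 for Cox4i2 (SD, n = 5). The place of Cox4i1 depended on the length used, since with the union of its exons the mean was 4829 and it came after Cox8b. In semaglutide-treated mice the subunit 7A genes came, by whole transcript length, in the order Cox7a2l, Cox7a2 and Cox7a1. There the ranges of these 3 genes overlapped, as did those of Cox4i1 with Cox8b and of Cox8a with Cox6a1.

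Counted together, 4 of the 9 genes were called lower and 0 higher under semaglutide than under vehicle, with the same numbers by edgeR and DESeq2. Of all 12303 genes tested limma called 1715 lower, edgeR 1542 and DESeq2 1729. The same 4 genes had groups that did not overlap, against 7.45% of all genes tested in that direction. The median log2 difference of the 9 genes was -0.28, beside -0.00287 over all genes tested. Of the 3 muscle isoforms 2 were lower, with a median of -0.46, and of the 4 ubiquitous or related genes 1 was lower, with a median of 0.06, but the classes were not tested against each other. When the ketone ester group was compared with semaglutide, 4 of the 9 genes were called higher and 0 lower, again by all 3 tools, and 5 had an unadjusted p under 0.05. Of all genes tested limma called 1234 higher, edgeR 1202 and DESeq2 1355, and the number at that unadjusted p was not counted. In that comparison 4 genes were higher and 1, Cox8a, was lower without overlap of the groups, against 9.96% and 10.2% of all genes, and the 9 genes had a median of 0.42, beside -0.00024 over all genes. Rescaling the columns to equal totals moved the median of all genes to 0.17 for semaglutide against vehicle and to -0.24 for semaglutide + ketone ester against semaglutide, and all genes with it. Relative to vehicle, Cox7a1 (-1.46), Cox8b (-0.29) and Cox4i1 (-0.35) were still called lower on that scale and Cox7a2 (-0.18) was not, and with the ketone ester Cox7a1 (1.38) and Cox4i1 (0.37) were still called higher and Cox8a (-0.65) was called lower. These comparisons share the semaglutide-treated mice, and so their values are given side by side without a test of the reversal.

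Of the 9 genes 0 were called between semaglutide + ketone ester and vehicle by limma, where 0.366% of all genes tested were called. At an unadjusted p under 0.05 the number was also 0, as it was with edgeR and with DESeq2 on recovered reads. Of all 12303 genes tested edgeR called 45 and DESeq2 172, and the number at that unadjusted p was not counted. The log2 differences of the 9 genes ran from -0.24 for Cox8a to 0.17 for Cox4i2. The groups did not overlap in 1 of the 9 genes, Cox8a, which was lower, against 5.88% of all genes in that direction. Genes were also called altered by a one-way analysis of variance with p under 0.05 and a fold of at least 1.5 between the extreme group means, which 2 of the 9 genes met, where 16.1% of all genes did. They were Cox7a1, with a 3.09-fold range of group means, and Cox4i1, with 1.54-fold. Cox8b and Cox7a2 had ranges of 1.37-fold and 1.42-fold and missed the fold criterion. Without semaglutide + ketone ester mouse 22, Cox7a1 alone was altered.

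**Figure D3:**
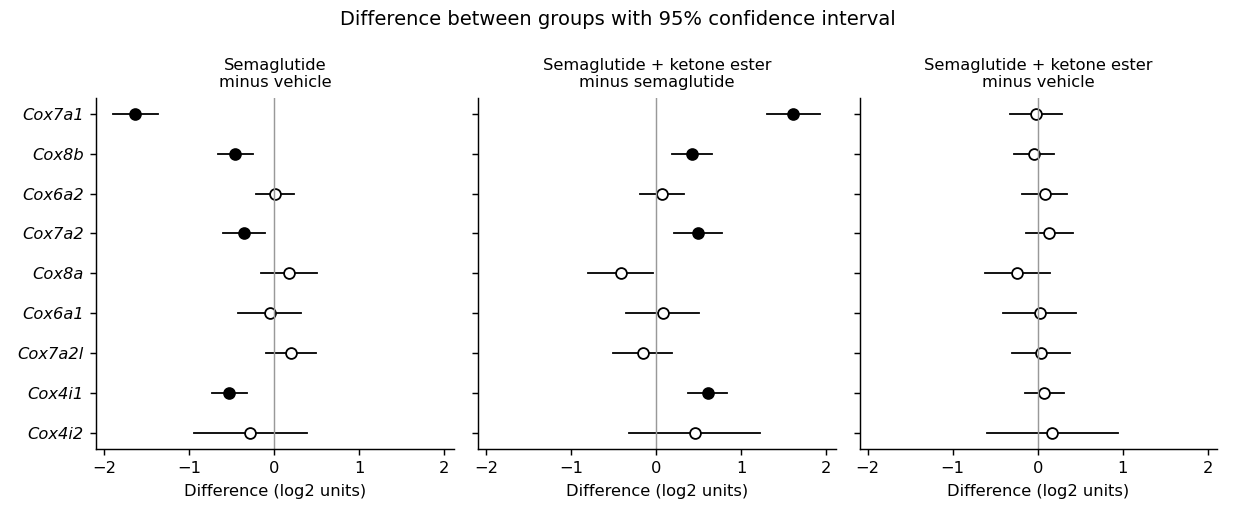
Log2 difference between groups (horizontal axis, log2 units of normalized count + 1) for the 9 genes in 3 comparisons, with points for the limma estimate and lines for its 95% confidence interval, filled where the adjusted p was under 0.05 (n = 5, 5 and 3 mice). Cox7a1, Cox8b, Cox7a2 and Cox4i1 are filled in the first 2 panels, with Cox7a1 at -1.64 and 1.62, and every interval of the third panel crosses 0.

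The other subunits of complex IV give the level of change against which the isoform genes can be read. Of 11 other nuclear genes listed for the complex, 8 were tested, and all 8 were lower under semaglutide than under vehicle by limma, with log2 differences between -0.71 and -0.45 and a median of -0.57. Of all genes tested 13.9% were lower. With equal totals 7 of the 8 were lower, Ndufa4l2 being the exception (-0.53, adjusted p = 0.0621). Cox5b, a subunit of the matrix side of the enzyme, had the largest decrease (-0.71, SE 0.10, adjusted p = 3.28e-04), followed by Ndufa4l2, a paralog of Ndufa4 (-0.71, SE 0.21, adjusted p = 0.0236). The smallest were those of Ndufa4, a subunit once assigned to complex I (-0.45, SE 0.09, adjusted p = 0.00341), and Cox6b1, on the intermembrane side (-0.48, SE 0.09, adjusted p = 0.00203). Among all 20 complex IV genes tested, Cox7a1 had the largest decrease, and Cox7a2l, Cox8a and Cox6a2 were those with a difference above 0, joined by Cox6a1 (0.12) when columns were rescaled to equal totals. Of the remaining nuclear genes, Cox6b2 had at most 7.42 normalized counts, and Cox7b2 and Cox8c were listed at 0 in all mice.

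The core subunits encoded in mitochondrial DNA fell by similar amounts, with log2 differences of -0.79 for mt-Co1 (SE 0.20, adjusted p = 0.00942), -0.66 for mt-Co2 (SE 0.17, adjusted p = 0.0131) and -0.81 for mt-Co3 (SE 0.12, adjusted p = 4.73e-04). Between semaglutide + ketone ester and semaglutide 7 of the 8 nuclear genes were higher, against 10.0% of all genes tested, and the median over all 8 was 0.62. Ndufa4l2 was the exception (0.45, SE 0.24, adjusted p = 0.204). Of the mitochondrial genes mt-Co2 (0.71, adjusted p = 0.0235) and mt-Co3 (0.63, adjusted p = 0.00739) were higher by limma and mt-Co1 was not (0.63, adjusted p = 0.0605), while edgeR and DESeq2 called all 3. With equal totals mt-Co3 alone was called higher (0.39, adjusted p = 0.0182). Between semaglutide + ketone ester and vehicle 0 of these 11 genes were called by limma, edgeR or DESeq2, and 0 had an unadjusted p under 0.05. Limma called only 0.366% of all genes tested in that comparison. The heat map of complex IV genes shows the values by mouse.

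**Figure D4:**
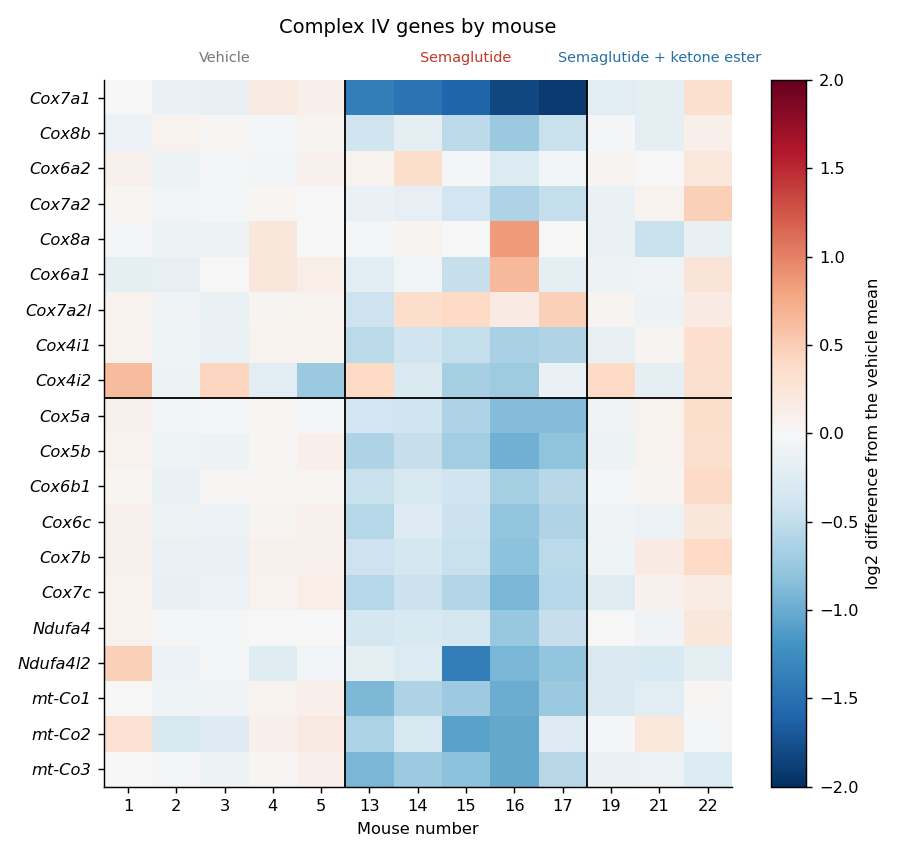
Difference of log2(normalized count + 1) from the mean of the 5 vehicle-treated mice (colour, from -2 in blue to 2 in red) for 20 complex IV genes (rows, the 9 isoform genes above the line and 11 other subunits below it) in 13 mice (columns, by mouse number and group). In semaglutide-treated mice Cox7a1 is the darkest blue row, Cox4i1 and the other subunits are lighter blue, Cox6a2 is close to 0, and Cox8a and Cox6a1 are red in mouse 16.

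Genes whose pattern over the 13 mice was most like that of each isoform gene were found by the root mean square difference of centred log2 values. For Cox7a1 they were Oxct1 (0.14 log2 units), the enzyme that activates ketone bodies for oxidation, Ckmt2 (0.17), the mitochondrial creatine kinase of muscle, and Lynx1 (0.17), a modulator of nicotinic acetylcholine receptors. The root mean square of the centred values of Cox7a1 itself was 0.81, so that little of its variation was left in these differences. Oxct1, Ckmt2 and Lynx1 had log2 differences of -1.53, -1.66 and -1.64 between semaglutide and vehicle. These genes were picked for their likeness to Cox7a1 over the same mice, so differences near its own follow from the choice. Cox4i1 lay nearest to Ndufa10 (0.05) and Ndufb5 (0.05), both subunits of complex I, and Idh3b (0.06), a subunit of isocitrate dehydrogenase. Cox7a2 lay nearest to Ndufb6 of complex I (0.06), Uqcr10 of complex III (0.07) and Slc25a11, the oxoglutarate carrier (0.07), and Cox8b to Oxnad1 (0.07), Dcaf11 (0.09) and Tarsl2 (0.10). Nearest to Cox6a2 were Aldh7a1, Psmb5 and Btbd1, at 0.079 to 0.086 against 0.146 for the variation of Cox6a2 itself. Nearest to Cox7a2l were Mfap1b, Wipi2 and Eef1d, at 0.076 to 0.090 against 0.231 for Cox7a2l itself. For Cox6a1 (Abhd2, Tspan12 and Sh3bgrl3), Cox8a (Qsox1, Tgfb1 and Dgat1) and Cox4i2 (Ppat, Epb41l4b and Galnt18) the nearest genes were 0.14 to 0.27 away, against 0.27 to 0.45 for the variation of the gene itself.

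Cox7a1 and Cox8b are also expressed in brown adipocytes and heart, and Cox4i2 in pericytes, so markers of other cells were set beside them. Ucp1, the defining gene of brown adipocytes, was at 0 in 12 mice and at 2.91 in semaglutide mouse 16, and Elovl3 was at 0 in all. The summed level of the 6 brown adipocyte genes was 130.02 to 213 under vehicle and 169 to 201 under semaglutide. Most of that sum was Ppargc1b, a coactivator also made in muscle, and of the 3 genes of the list that were tested, Dio2, which activates thyroid hormone, was lower under semaglutide (-1.43, SE 0.36, limma adjusted p = 0.00958). Dio2 was near the limit of detection, at 13.2 to 25.5 normalized counts under vehicle and 3.73 to 14.5 under semaglutide. The 4 cardiac genes summed to at most 165 normalized counts in any mouse. Of the 10 pericyte and smooth muscle genes 4 were lower under semaglutide, where 13.9% of all genes were (summed level 10113 to 13057, against 13228 to 16134 under vehicle), and 3 were higher with the ketone ester (13876 to 15145) than with semaglutide, where 10.0% of all genes were. With equal totals these counts were 2 and 1, and 1 gene of the list was then higher under semaglutide, and edgeR called 2 with the ketone ester. A large part of the summed levels was Abcc9, with 5118 to 6602 normalized counts per mouse. Under semaglutide it was at 0.03 (limma adjusted p = 0.823), and with equal totals it was that higher gene (0.20, adjusted p = 0.0236). Of the 5 endothelial genes 0 were called by limma, edgeR or DESeq2 under semaglutide (1 had an unadjusted p under 0.05), 3 were higher with the ketone ester than with semaglutide, and with equal totals 0 were higher and 1 was lower.

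Genes of the muscle fibre were also counted. Of all genes tested 13.9% were lower and 12.5% higher under semaglutide, and 10.0% were higher with the ketone ester than with semaglutide. Of the 5 myofibre genes 1 was lower under semaglutide than under vehicle, Mb, which encodes the oxygen-binding protein myoglobin (-2.15, SE 0.22, adjusted p = 3.29e-05), and 3 were higher with the ketone ester than with semaglutide, Mb among them (1.64, SE 0.25, adjusted p = 0.00103). Of the 7 fast-fibre genes Actn3, an alpha-actinin of fast fibres, was higher under semaglutide (0.74, SE 0.17, adjusted p = 0.00668) and Tnnc2, the fast troponin C, was lower (-0.59, SE 0.19, adjusted p = 0.0333), and 4 were higher with the ketone ester than with semaglutide. Without mice 13 and 16 the genes lower under semaglutide numbered 3 in each of these lists, with Myh4 counted in both. In that fit 2283 of all 12303 genes tested were lower. Of 7 slow-fibre genes 1 was lower under semaglutide than under vehicle, with sums of 8934 to 24967 against 9724 to 39595, and with the ketone ester 0 were called by limma against semaglutide, 1 had an unadjusted p under 0.05, and edgeR and DESeq2 called 1 each. The 5 erythroid genes were all called higher by limma with the ketone ester (summed level 2849 to 5558) than with semaglutide (50.5 to 3148), and edgeR called 1 and DESeq2 0 of them. Under semaglutide limma called 0 of these 5 against vehicle with all mice, as did edgeR and DESeq2, but all 5 had an unadjusted p under 0.05 and all 5 were lower without mice 13 and 16. The part of these cells and fibre types in the values of the 9 genes was not tested.

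Of the 4 genes called lower under semaglutide, Cox4i1 had no RefSeq window in the promoter set used. The upstream sequences of the other 3, Cox7a1, Cox8b and Cox7a2, are shown. They run from 250 to 28 bases before the RefSeq start site (GRCm38.p6), so that they end before the annotated transcripts, and cover chr7:30183921-30184143 on the plus strand for Cox7a1, chr7:140900474-140900696 on the minus strand for Cox8b and chr9:79759881-79760103 on the minus strand for Cox7a2. Capitals mark matches, on either strand, to 5 short motifs, namely the E-box CANNTG, the TATA box TATAAA, the nuclear receptor element AGGTCA, the ETS core CCGGAAG and the GC box GGGCGG.
Cox7a1: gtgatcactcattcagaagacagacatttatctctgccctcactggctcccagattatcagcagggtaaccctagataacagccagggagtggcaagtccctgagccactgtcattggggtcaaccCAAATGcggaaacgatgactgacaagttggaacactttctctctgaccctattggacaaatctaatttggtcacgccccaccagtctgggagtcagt
Cox8b: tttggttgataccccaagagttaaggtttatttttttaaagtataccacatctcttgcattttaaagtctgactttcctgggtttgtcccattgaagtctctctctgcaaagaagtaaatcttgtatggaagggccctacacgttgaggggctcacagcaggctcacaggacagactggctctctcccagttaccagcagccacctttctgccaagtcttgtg
Cox7a2: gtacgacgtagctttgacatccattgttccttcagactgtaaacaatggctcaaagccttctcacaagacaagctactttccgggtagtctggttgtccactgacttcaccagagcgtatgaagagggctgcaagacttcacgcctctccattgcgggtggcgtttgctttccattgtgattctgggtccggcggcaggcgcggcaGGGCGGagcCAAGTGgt
Cox7a1 held 1 E-box, Cox7a2 held 1 E-box and 1 GC box, and Cox8b held none of the 5. Over all 32851 promoter windows of the same length 62.5% held an E-box, 28.9% a GC box, 12.7% a nuclear receptor element, 10.2% a TATA box and 5.14% an ETS core, so that these matches were common ones. Of the 3 other isoform genes with a RefSeq window, Cox7a2l and Cox8a held 1 E-box each and Cox6a1 held 2 GC boxes. The window of Cox7a2l, unlike the others, lay inside the span of its annotated gene. The GC content was 49.8% for Cox7a1, 45.3% for Cox8b, 54.3% for Cox7a2, 49.8% for Cox7a2l, 53.4% for Cox8a and 61.4% for Cox6a1.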

How the data were processed

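Total RNA of the gastrocnemius of 13 mice was extracted with TRIzol, prepared as stranded mRNA libraries, sequenced as 59-base paired-end reads and aligned to mm10 with DRAGEN. DESeq2 is named in the submitters' processing notes, and the counting program and gene annotation are not given in the sources used here. The authors deposited normalized counts per gene (a signal value, reads divided by a factor per mouse), 1 column per mouse. Every deposited value was a whole multiple of 1 step per mouse (100% within 0.01), so whole reads were recovered. Between 15319471 and 23498162 reads were counted on genes per mouse. The 95% confidence intervals come from the limma fit and reflect the spread between mice.

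Values were converted to log2(normalized count + 1) for the 12303 of 21868 genes with a mean of at least 10, and fold changes are on that scale, which understates changes of low genes such as Cox4i2. All groups were fitted together with limma 3.58.1 (R 4.3.3, variance trend on mean level), with Benjamini-Hochberg adjustment over all genes tested and a threshold of 0.05. Ratios of isoforms, as differences of log2(normalized count + 1), were compared by two-sided exact permutation tests, adjusted over 12 tests. The p-values measure the spread between mice, and no pair of mice agreed within counting noise. The isoform genes and all lists were chosen with earlier results of these data known. Named were all 9 genes, the mitochondrial and the 2 most and 2 least changed nuclear subunits of complex IV, subunits under the filter, the 3 genes nearest to each isoform gene, and defining genes of each marker list. Mb, Actn3, Tnnc2, Dio2, Ppargc1b and Abcc9 were named after their values were seen. Alternatives were pseudocounts of 0.5 and 10, other filters, equal totals, quantile normalization, sample weights, edgeR 4.0.16 and DESeq2 1.42.0 on recovered reads (3311 and 3577 genes called for semaglutide against vehicle, 3255 by limma), and each mouse left out. Added after seeing the data were a limma fit with 1 prior variance and fits without semaglutide mice 13 and 16. The limma and edgeR scripts were tested on simulated data.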

Additional observations from a re-analysis of the deposited data

Results flagged for a closer look

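Within the semaglutide group, mouse 16 stood apart from the other 4 mice in 3 of 13 sets of values (9 genes and 4 ratios) tested by Dixon's criterion, which flags about 1 set in 20 by chance. Among the 13 sets of the vehicle group none met the criterion. It had 367 normalized counts of Cox6a1, with the nearest of the others at 224. For Cox8a it had 618, with the nearest at 353. Its ratio of Cox6a2 to Cox6a1 was 27.5, with the nearest at 58.4. The 3 values are not independent, since Cox6a1 enters the ratio and all come from 1 library, in which the 7 adipocyte genes summed to 19743 normalized counts. The part of that RNA in these values was not tested.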

How the results depend on the processing

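Cox7a1, Cox8b and Cox4i1 kept their direction and their adjusted p under 0.05 in semaglutide against vehicle under all 24 alternatives, and Cox7a1 and Cox4i1 did so in semaglutide + ketone ester against semaglutide. Over all alternatives the log2 difference of Cox7a1 ran from -1.70 to -1.46 and from 1.38 to 1.71. The number of the 9 genes called lay between 3 and 5 for semaglutide against vehicle, and for semaglutide + ketone ester against semaglutide between 2 (without semaglutide + ketone ester mouse 22) and 5, and it was 0 for semaglutide + ketone ester against vehicle throughout. Altered genes numbered 4 with no fold criterion and 1 with a fold of at least 2, with equal totals or without semaglutide mice 13 and 16, and 1 to 3 when 1 mouse was left out.

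The log2 ratio of Cox7a1 to Cox7a2 in semaglutide against vehicle was -1.31 to -1.24 with 1 mouse left out and -1.32 without mice 13 and 16, and that of Cox8b to Cox8a was -0.73 to -0.39 and -0.40. Their adjusted p rose to between 0.0714 and 0.20 without mice 13 and 16 together, without any 1 vehicle-treated mouse and without semaglutide mouse 16. For Cox7a1 to Cox7a2 the groups stayed apart in these fits, with ratios of at most 0.517 under semaglutide and at least 1.09 under vehicle. An adjusted p here also depends on the number of mice and on the other ratio tests. Without mouse 16 the exact p of Cox7a1 to Cox7a2 was the same as with all mice. Its adjusted p rose there through the other ratio tests. For the other fits the share of each in the rise was not tested. Ratios near 0 changed sign with 1 mouse left out. Cox6a2 to Cox6a1 ran from -0.027 to 0.31, from -0.26 to 0.084 and from -0.013 to 0.13 in the 3 comparisons, and Cox4i2 to Cox4i1 from -0.38 to 0.020 against semaglutide and from -0.14 to 0.27 against vehicle.

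Uncalled log2 differences near 0 also changed sign. With 1 mouse left out, semaglutide against vehicle gave -0.074 to 0.082 for Cox6a2 and -0.23 to 0.049 for Cox6a1, and semaglutide + ketone ester against semaglutide gave -0.037 to 0.26 for Cox6a1. Semaglutide + ketone ester against vehicle gave -0.19 to 0.075 for Cox7a1, -0.11 to 0.033 for Cox8b, -0.029 to 0.27 for Cox7a2, -0.025 to 0.11 for Cox7a2l, -0.090 to 0.092 for Cox6a1, -0.047 to 0.20 for Cox4i1 and -0.012 to 0.36 for Cox4i2. With equal totals Cox6a1 was at 0.12, -0.16 and -0.037 in the 3 comparisons, Cox6a2 at -0.16 against semaglutide and Cox7a2l at -0.026 against vehicle. By edgeR Cox6a1 was at 0.0055 in semaglutide against vehicle. Without mice 13 and 16, Cox6a2 was at -0.0046 in semaglutide + ketone ester against semaglutide. Cox7a1 in semaglutide + ketone ester against vehicle was at 0.0036 by DESeq2, 0.010 by edgeR and 0.0090 after quantile normalization. The causes were not tested. Cox7a2l was called without mouse 13, without mice 13 and 16 and with sample weights.

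With equal totals genes called higher and lower over the whole table numbered 3351 and 985 for semaglutide against vehicle (1540 and 1715 as deposited), and with the ketone ester against semaglutide 637 and 3715 (1234 and 1312 as deposited). With 3 mice in 1 group, no exact test of a ratio there can give a p under 0.0179. No paired analysis was possible because the labels give no number shared by mice of different groups.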
